A study of Mus musculus with 9 samples.

Results

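A group of 10 genes of metal entry, metal reduction and iron oxidation was followed in the mouse left ventricle. It held the divalent metal transporters Slc11a1 and Slc11a2, and Steap1, Steap2, Steap3 and Steap4 of the Steap metalloreductase family. The metal importers Slc39a14 and Slc39a8 and the ferroxidases Cp and Heph completed it. The genes were taken by symbol from a table of read counts, in which all 10 were listed among 55367 symbols. The samples were 3 left ventricles with myocardial infarction and BPD treatment (MI+BPD), 3 with myocardial infarction and no BPD label (MI), and 3 after sham surgery (Sham), each sequenced as bulk RNA in 1 library. The infarcted tissue was collected on day 14 after MI and combined the core of the infarct with the tissue around it, so that a sham ventricle has no matching region. The labels give no strain, age, sex, sampling day of the sham animals, or meaning and dose of BPD, and do not say whether the libraries of a group came from separate animals. The p-values therefore measure the spread between these libraries, which may be technical. A ventricle stands here for the tissue of 1 library.

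Iron crosses membranes into the cytosol as the ferrous ion, whereas most iron outside cells and iron released from transferrin is ferric. Slc11a2 (DMT1) carries ferrous iron across the plasma membrane and out of endosomes, and Slc11a1 (NRAMP1) moves divalent metals across the phagosome membrane of macrophages. Most of the Steap proteins reduce ferric iron and cupric copper. Slc39a14 (ZIP14) and Slc39a8 (ZIP8) take up zinc, manganese and iron that is not bound to transferrin. Cp (ceruloplasmin) and Heph (hephaestin) are copper enzymes that oxidise ferrous iron as it leaves the cell.

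Total counts ran from 14451410 to 19269072 per library, and levels are given as CPM, read counts scaled to library size with trimmed mean of M values (TMM) factors. Genes of mitochondrial DNA took 17.6 to 25.7% of counts in MI+BPD, 11.4 to 18.2% in MI and 34.4 to 35.2% in Sham. The TMM factors were 0.983 to 1.13 in MI+BPD, 1.14 to 1.32 in MI and 0.741 to 0.757 in Sham. Scaling by library totals alone makes no allowance for such differences, and their part in its results was not tested. Heart muscle and connective tissue markers set the infarcted ventricles apart from Sham. The summed level of 8 cardiomyocyte markers was 29309 to 43624 CPM in MI+BPD, 17999 to 30579 CPM in MI and 75630 to 79890 CPM in Sham. The sum of 8 fibroblast markers was 20092 to 21692 CPM in MI+BPD, 14867 to 21997 CPM in MI and 1110 to 1275 CPM in Sham, and that of 8 macrophage markers was 959 to 1267 CPM in MI+BPD, 740 to 1275 CPM in MI and 365 to 439 CPM in Sham. The libraries MI 1 and MI+BPD 1 held more epicardial and mesothelial marker RNA than the rest, at 100.2 CPM in MI+BPD 1 and 221 CPM in MI 1 over 6 markers, against 12.3 to 49.3 CPM in the other 7. In bulk RNA, fewer cells of a type and less RNA per cell cannot be told apart, and the part of these markers in the results on the 10 genes was not tested.

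Of the 10 genes, 9 had enough counts to be tested. In MI against Sham, 4 of them were higher (Steap2, Slc11a1, Heph and Steap3), 1 was lower (Slc11a2) and 4 did not pass an adjusted p of 0.05 in edgeR's quasi-likelihood test. Over all 15138 genes tested, 37.0% were called higher and 31.9% lower in that comparison (68.9% in all), so that 4 of 9 higher is near the share of all genes. The median log2 fold change was 0.60 over the 9 genes and 0.07 over all genes tested. In MI+BPD against Sham, 5 were higher (the same 4 and Cp), 1 was lower (Slc11a2) and 3 did not pass, against 31.8% higher and 27.8% lower (59.6% in either direction) over all genes, and the median log2 fold change was 0.68 over the 9 genes and 0.04 over all genes. MI+BPD against MI gave no call among the 9, where 0.00% of all genes were called. The 2 comparisons with Sham share the 3 sham libraries.

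**Figure D1:**
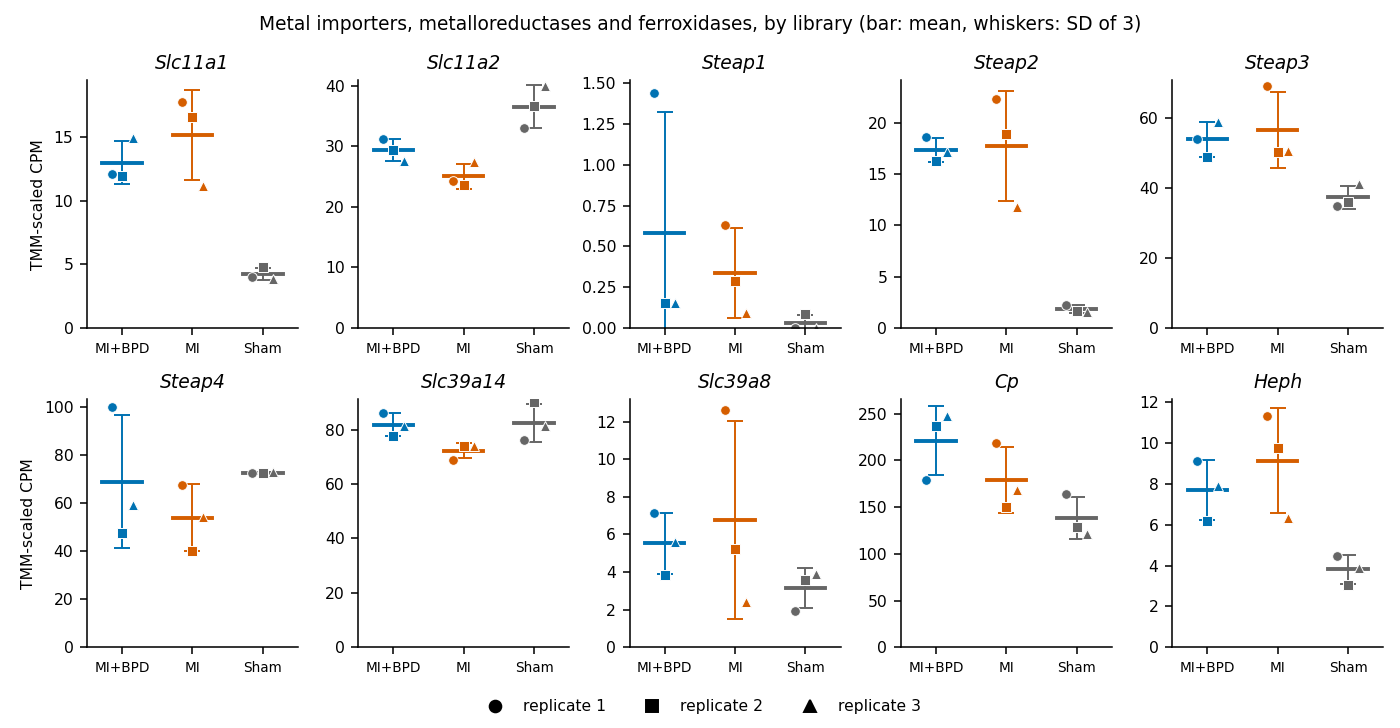
Level of each of the 10 genes (TMM-scaled CPM, y axis, its own scale in each panel) in the MI+BPD, MI and Sham libraries (x axis). Each point is 1 library and each bar is the mean of 3. Steap2 lies at 11.8 CPM or more in all 6 infarcted ventricles and at 2.29 CPM or less in the 3 sham ventricles.

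Promoter windows are shown for the genes called higher in a comparison with Sham, since these moved in 1 direction. The RefSeq tables held 14 windows for 7 of the 10 genes, each of 300 bases, 250 before and 50 after a start site (GRCm38.p6); of several windows, the one farthest downstream is printed. Which start site the ventricle uses cannot be told from counts per gene. Capitals mark matches, on either strand, to 6 motifs: the metal response element core TGCACNC or TGCGCNC, the antioxidant response element TGACNNNGC, the AP-1 site TGANTCA, the NF-kB site (GGG and CC with any 5 bases between them), the hypoxia response element core ACGTG or GCGTG, and the TATA box TATAAA. Matches that overlap each other run together in the capitals.
Slc11a1, chr1:74374953-74375252, plus strand: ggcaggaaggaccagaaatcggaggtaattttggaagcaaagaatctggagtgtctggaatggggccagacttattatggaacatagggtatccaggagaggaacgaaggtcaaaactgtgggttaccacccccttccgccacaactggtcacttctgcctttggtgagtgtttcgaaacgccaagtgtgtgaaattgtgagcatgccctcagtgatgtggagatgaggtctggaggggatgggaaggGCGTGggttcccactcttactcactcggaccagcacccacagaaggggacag
Steap2, chr5:5694040-5694339, minus strand: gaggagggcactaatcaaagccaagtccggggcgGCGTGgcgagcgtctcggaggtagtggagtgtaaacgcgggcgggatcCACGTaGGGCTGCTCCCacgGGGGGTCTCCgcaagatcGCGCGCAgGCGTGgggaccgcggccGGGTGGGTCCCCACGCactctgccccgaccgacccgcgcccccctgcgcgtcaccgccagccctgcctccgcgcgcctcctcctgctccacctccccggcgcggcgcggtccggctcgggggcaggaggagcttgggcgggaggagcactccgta
Steap3, chr1:120258829-120259128, minus strand: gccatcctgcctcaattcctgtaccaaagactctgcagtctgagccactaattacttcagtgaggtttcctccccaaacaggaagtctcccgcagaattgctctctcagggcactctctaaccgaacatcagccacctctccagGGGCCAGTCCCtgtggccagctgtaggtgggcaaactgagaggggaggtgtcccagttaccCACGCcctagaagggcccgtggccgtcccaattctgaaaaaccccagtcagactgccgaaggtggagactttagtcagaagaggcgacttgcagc
Cp, chr3:19956999-19957298, plus strand: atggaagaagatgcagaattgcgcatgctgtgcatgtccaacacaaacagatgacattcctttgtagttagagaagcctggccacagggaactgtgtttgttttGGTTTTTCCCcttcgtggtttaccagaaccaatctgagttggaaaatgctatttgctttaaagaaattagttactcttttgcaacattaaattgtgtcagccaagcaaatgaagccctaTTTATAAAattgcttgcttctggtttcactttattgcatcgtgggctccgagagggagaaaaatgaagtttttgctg

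The Steap2 window held 1 metal response element core, 5 NF-kB matches, some of which overlap, and 4 hypoxia cores. The Slc11a1 window held 1 hypoxia core and no other match, the Steap3 window 2 overlapping NF-kB matches and 1 hypoxia core, and the Cp window 1 NF-kB match and 2 overlapping TATA matches. Short motifs of this kind are frequent. Among 32851 windows of the same length, 50.8% held the NF-kB letters, 43.8% a hypoxia core, 25.7% a metal response element core, 13.6% a TATA box, 12.4% an antioxidant response element and 7.81% an AP-1 site. Over the 14 windows of the 10 genes, the NF-kB letters were found in 9, a hypoxia core in 7, a metal response element core in 3 (Steap1, Steap2 and Slc39a8), a TATA box in 3 (Steap2, Steap4 and Cp), an antioxidant response element in 2 (Steap2 and Slc39a8) and an AP-1 site in 1 (Cp). A match describes letters, not a bound site.

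The 2 Slc11 transporters moved in opposite directions. Slc11a1, the transporter of the macrophage phagosome, had 12.1, 12.0 and 14.9 CPM in MI+BPD, 17.8, 16.6 and 11.1 CPM in MI and 4.03, 4.81 and 3.89 CPM in Sham. Every infarcted ventricle lay above every sham ventricle, and the MI+BPD and MI libraries overlapped. Slc11a1 was 3.58-fold higher in MI than in Sham (log2 fold change 1.84 ± 0.20 SE, edgeR quasi-likelihood adjusted p = 7.53e-05) and 3.07-fold higher in MI+BPD than in Sham (1.62 ± 0.20 SE, adjusted p = 0.000267). Between MI+BPD and MI, its log2 fold change was -0.22 with a 95% interval from -0.62 to 0.18 (adjusted p = 0.555). The 8 macrophage markers were all called higher in MI than in Sham, and MI 3, the MI library with the lowest macrophage sum, was also the MI library with the least Slc11a1.

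Slc11a2, the ferrous iron carrier of the plasma membrane and endosome, had 31.2, 29.4 and 27.6 CPM in MI+BPD, 24.2, 23.6 and 27.4 CPM in MI and 33.0, 36.7 and 40.0 CPM in Sham. It was the only one of the 9 tested genes whose 3 groups did not overlap at all: every MI library lay below every MI+BPD library, and these lay below every sham library. The cardiomyocyte marker sums were 43624, 29474 and 29309 CPM in MI+BPD, 17999, 19065 and 30579 CPM in MI and 75630, 77089 and 79890 CPM in Sham, so that MI+BPD 1 and MI 3 had the largest sum of their group, and also the most Slc11a2 of it. In MI+BPD against MI the 8 markers had a median log2 fold change of 0.64, with 6 at an unadjusted p under 0.05 and 0 called, and their part in the Slc11a2 result was not tested. In MI, Slc11a2 fell to 0.685 times its level in Sham (log2 fold change -0.54 ± 0.096 SE, edgeR adjusted p = 0.000804). In MI+BPD it fell to 0.803 times the sham level (-0.32 ± 0.096 SE, adjusted p = 0.0182), a call that was lost without Sham 3 (adjusted p = 0.0752), MI+BPD 2 (0.0503) or MI+BPD 3 (0.0700), or with no filter on low counts (0.0513). Both directions depend on the scaling: with library totals alone, the log2 fold change of Slc11a2 was 0.19 in MI (adjusted p = 0.0800) and 0.21 in MI+BPD (0.0624) against Sham, and that scaling moved the median of all genes to 0.81 in MI and 0.57 in MI+BPD. Relative to the median of all genes, Slc11a2 lay at -0.62 in MI and -0.36 in MI+BPD under both scalings.

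Between MI+BPD and MI, Slc11a2 had the smallest unadjusted p of the 9 genes (0.0392), with 1.17-fold more in MI+BPD (log2 fold change 0.23, 95% interval 0.014 to 0.44), and it did not pass after adjustment (adjusted p = 0.369). The table counts reads per symbol, so that transcripts of Slc11a2 with and without the iron-responsive element were not separated. In the GENCODE M21 annotation, 402 bases of its exons also lie in Gm5475 on the opposite strand, and whether reads were counted by strand is not given in the sources used here. The ratio of the 2 transporters within a library, which needs no scaling factor, followed the same split. The log2 ratio of Slc11a1 to Slc11a2 (each CPM + 0.1) averaged -1.18 ± 0.26 in MI+BPD, -0.75 ± 0.47 in MI and -3.08 ± 0.22 in Sham (SD, n = 3 each). The difference from Sham was 1.90 in MI+BPD and 2.33 in MI, with no overlap of libraries and p = 0.1 in each 2-sided exact permutation test, the smallest that 3 libraries against 3 allow (0.25 after adjustment over 15 ratio tests).

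**Figure D2:**
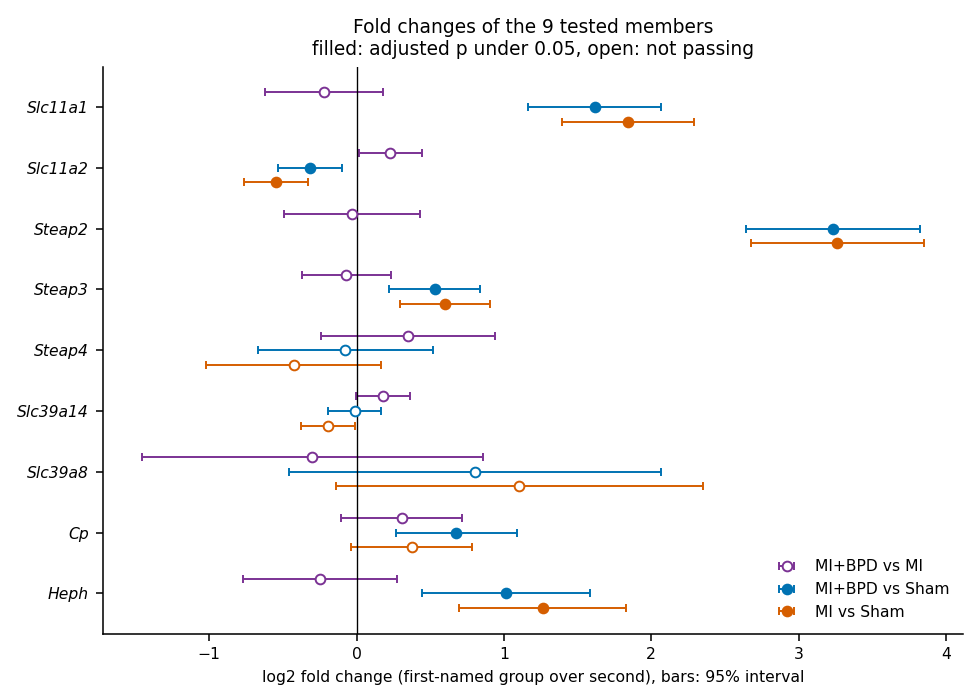
Log2 fold change (x axis) of the 9 tested genes (y axis) in MI+BPD against MI, MI+BPD against Sham and MI against Sham, with 95% intervals from edgeR's quasi-likelihood fit. The intervals of Steap2, Slc11a1, Heph and Steap3 lie above 0 in both comparisons with Sham, and in MI+BPD against MI only the interval of Slc11a2 (0.014 to 0.44) does not cross 0.

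Among the Steap reductases, Steap2 had the largest fold change of the 9 tested genes. Steap2, a ferric and cupric reductase of the plasma membrane and Golgi, had 18.6, 16.2 and 17.2 CPM in MI+BPD, 22.3, 18.9 and 11.8 CPM in MI and 2.29, 1.66 and 1.60 CPM in Sham. The lowest infarcted ventricle, MI 3, lay well above the highest sham ventricle. Steap2 was 9.60-fold higher in MI than in Sham (log2 fold change 3.26 ± 0.26 SE, edgeR adjusted p = 2.29e-05) and 9.39-fold higher in MI+BPD than in Sham (3.23 ± 0.26 SE, adjusted p = 3.41e-05). The MI+BPD and MI groups had nearly the same mean, at 17.3 ± 1.21 CPM in MI+BPD and 17.7 ± 5.36 CPM in MI (SD, n = 3 each). The 95% interval of that log2 difference, -0.50 to 0.43, leaves room for a change of either sign. The 8 fibroblast and 8 macrophage markers were all called higher in MI than in Sham as well, and MI 3 had the lowest sum of both among the 6 infarcted ventricles. Within the groups the orders were mixed. The macrophage sums of MI 1, MI 2 and MI 3 (1275, 1049 and 740 CPM) ranked as Steap2 did. MI 2 had the largest fibroblast sum (21997 CPM) but less Steap2 than MI 1. MI+BPD 3 had the largest fibroblast and macrophage sums of its group (21692 and 1267 CPM), but MI+BPD 1 had the most Steap2 of it. The part of either cell type in the Steap2 result was not tested.

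Steap3, the ferrireductase of the transferrin endosome, had 53.8, 48.8 and 58.8 CPM in MI+BPD, 68.9, 50.1 and 50.4 CPM in MI and 34.8, 35.9 and 41.1 CPM in Sham. All 6 infarcted ventricles were above all 3 sham ventricles, by a smaller margin than for Steap2. Steap3 was 1.52-fold higher in MI than in Sham (log2 fold change 0.60 ± 0.14 SE, edgeR adjusted p = 0.00348) and 1.44-fold higher in MI+BPD than in Sham (0.53 ± 0.14 SE, adjusted p = 0.00878). Between MI+BPD and MI the interval ran from -0.37 to 0.23.

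Steap4, a plasma membrane reductase that inflammatory signals are known to induce in other tissues, varied widely within the infarcted groups. It had 100.3, 47.6 and 59.2 CPM in MI+BPD, 67.9, 40.0 and 54.4 CPM in MI and 72.5, 72.8 and 73.1 CPM in Sham. The 3 sham ventricles were nearly equal, the 3 MI ventricles lay below them, and MI+BPD 1 lay above them while the other MI+BPD ventricles lay below. No Steap4 test passed: the log2 fold change was -0.43 ± 0.26 in MI against Sham (edgeR adjusted p = 0.175), -0.08 ± 0.26 in MI+BPD against Sham (0.816) and 0.35 ± 0.26 in MI+BPD against MI (0.535), each ± SE. MI 1 and MI+BPD 1, the libraries with the most epicardial and mesothelial marker RNA, also had the most Steap4 of their groups. Leaving both out had to lower both group means, so that this fit is no separate support for a fall. Steap4 was then called lower than in Sham in MI (-0.65, edgeR adjusted p = 0.00240) and in MI+BPD (-0.48, adjusted p = 0.0123). In MI against Sham, limma-voom also called it lower (-0.68, adjusted p = 0.00902), as did the fit without MI+BPD 1 (adjusted p = 0.0489), whereas with library totals alone its log2 fold change was 0.31.

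Steap1 was close to undetected and was not tested in the main fit. It had 24, 3 and 3 reads in MI+BPD, 16, 7 and 2 reads in MI and 0, 1 and 0 reads in Sham, so that most of its reads came from MI+BPD 1 and MI 1. The depth-scaled ratio of group counts was 19.1 in MI+BPD against Sham, with a 95% exact counting interval from 3.17 to 777, and 12.4 in MI against Sham, with an interval from 2.03 to 509. Without MI+BPD 1 the first ratio was 5.43 (0.659 to 250), and without MI 1 the second was 6.90 (0.956 to 302), so that both intervals then included 1. With Sham 2 left out no sham read remained, and against a floor of 3 reads over the group the ratio was 4.30 in MI+BPD and 2.80 in MI. Those 2 ratios leave out the error of the infarct counts, so that they set no minimum for the fold change. The intervals above cover counting error only. An edgeR fit with no filter on low counts, which takes in the spread between libraries, did not call Steap1. Its log2 fold change there was 4.06 ± 1.49 SE in MI+BPD against Sham (edgeR adjusted p = 0.0695) and 3.35 ± 1.55 SE in MI against Sham (0.133).

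The ratio of Steap3 to Steap4 within a library separated MI from Sham. Its log2 value (CPM + 0.1) averaged 0.079 ± 0.22 in MI and -0.97 ± 0.12 in Sham (SD, n = 3 each), a difference of 1.05 with no overlap (exact permutation p = 0.1, adjusted p = 0.25). In MI+BPD the ratio averaged -0.29 ± 0.53 (SD, n = 3), and MI+BPD 1, at -0.90, lay within the range of the sham values. The difference of MI+BPD from Sham was 0.68 (exact permutation p = 0.2). The ratio of Steap1 to Steap2 is among the 15 tests and is not read against Sham, since the sham value is set by 0 or 1 Steap1 reads.

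**Figure D3:**
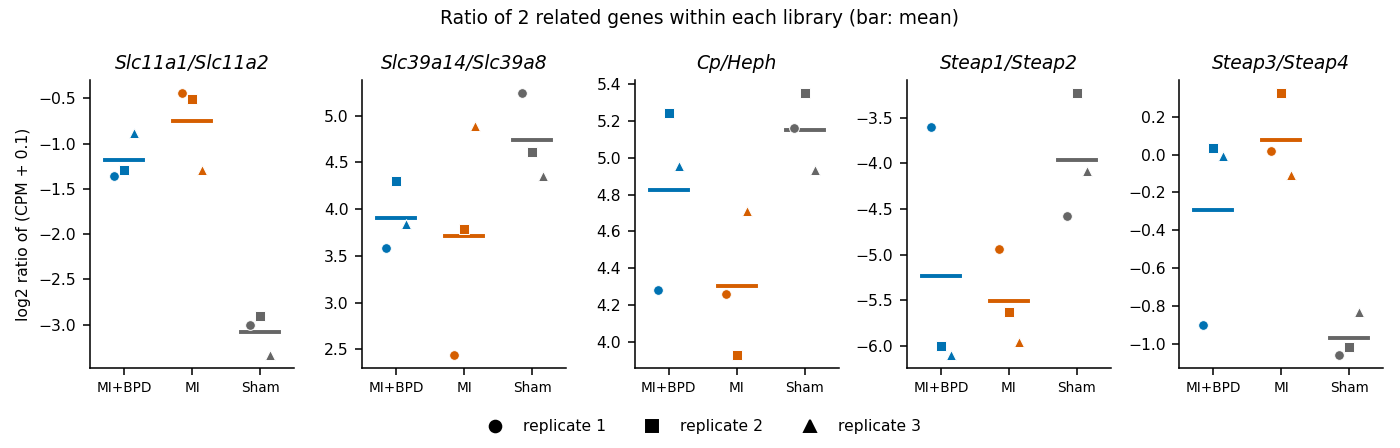
Log2 ratio of paired genes within each library (CPM + 0.1 in numerator and denominator, y axis) for the MI+BPD, MI and Sham libraries (x axis); each point is 1 library and each bar the mean of 3. Slc11a1 over Slc11a2 is higher in all 6 infarcted ventricles than in the 3 sham ventricles, whereas Cp over Heph is lower in all 3 MI ventricles than in Sham; the sham points of Steap1 over Steap2 rest on 0 or 1 Steap1 reads.

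Neither ZIP importer passed the test in any comparison. Slc39a14, a transporter of zinc, manganese and iron not bound to transferrin, had 86.3, 77.7 and 81.6 CPM in MI+BPD, 69.0, 73.9 and 73.9 CPM in MI and 76.3, 90.1 and 81.4 CPM in Sham. The 3 MI ventricles lay below all the others, by a small margin. Its log2 fold change in MI against Sham was -0.19 ± 0.081 SE (edgeR adjusted p = 0.0566), near the threshold. It passed with median-ratio factors (adjusted p = 0.0268), DESeq2 (0.0179), limma-voom (0.0365), and without Sham 1 (0.0325) or MI+BPD 1 (0.0363), and with library totals alone its sign turned and it was called higher (0.54, adjusted p = 0.000279). MI+BPD against MI gave 0.18 with an interval from -0.0015 to 0.36 (adjusted p = 0.371), and MI+BPD against Sham gave -0.01 with an interval from -0.20 to 0.17 (adjusted p = 0.893).

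Slc39a8, the closest relative of Slc39a14, had 7.13, 3.85 and 5.59 CPM in MI+BPD, 12.6, 5.25 and 2.39 CPM in MI and 1.92, 3.59 and 3.89 CPM in Sham. The 3 groups overlapped, and the MI group held both a value above and a value below the whole range of MI+BPD. The log2 fold change was 1.10 ± 0.55 SE in MI against Sham (edgeR adjusted p = 0.101), 0.80 ± 0.56 SE in MI+BPD against Sham (adjusted p = 0.243) and -0.30 ± 0.51 SE in MI+BPD against MI (adjusted p = 0.793). Single libraries decided the MI value: it was 0.29 without MI 1 (adjusted p = 0.574) and 1.50 without MI 3 (adjusted p = 0.0144). It also passed with library totals alone (1.88, adjusted p = 0.0121), as did the MI+BPD value with only the 2 groups in the fit (0.82, adjusted p = 0.0490). MI 1 also held nearly all adipocyte marker RNA (139 CPM over 5 markers, against 0 to 0.828 CPM in the other 8 libraries) and the largest sums of neutrophil markers (56.6 CPM, against 3.93 to 21.7 CPM in the other 8 libraries) and of T and B lymphocyte markers (42.4 CPM, against 2.27 to 9.77 CPM in the other 8), and what these contribute to Slc39a8 was not tested. The log2 ratio of Slc39a14 to Slc39a8 was lower in MI+BPD than in Sham with no overlap (difference -0.83, exact permutation p = 0.1, adjusted p = 0.25), and the other 2 ratio differences of this pair overlapped.

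The ferroxidases differed in which comparison they passed. Cp, the ferroxidase that liver secretes into plasma and that other cells make in a membrane-bound form, had 179, 237 and 247 CPM in MI+BPD, 219, 150.2 and 168 CPM in MI and 164, 129 and 122 CPM in Sham. All MI+BPD ventricles lay above all sham ventricles, and MI overlapped both. Cp was 1.60-fold higher in MI+BPD than in Sham (log2 fold change 0.68 ± 0.18 SE, edgeR adjusted p = 0.0107) and did not pass in MI against Sham (0.37 ± 0.18 SE, adjusted p = 0.0957), except with library totals alone (1.11, adjusted p = 0.000978). That does not show that the BPD group differs from MI: the direct comparison gave 0.31 with an interval from -0.10 to 0.72 (adjusted p = 0.445). Hepatocyte marker RNA was at 61.5 CPM over 6 markers in MI 2 and at or below 0.873 CPM in the other 8 libraries. MI 2 had the least Cp of the 3 MI ventricles, and what hepatocyte RNA contributes to Cp was not tested. In the annotation, 108 exon bases of Cp also lie in Hps3 on the opposite strand, and 29 of Heph in Hsf3.

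Heph, the membrane-bound ferroxidase that acts beside the iron exporter ferroportin, had 9.10, 6.16 and 7.87 CPM in MI+BPD, 11.3, 9.77 and 6.31 CPM in MI and 4.48, 3.06 and 3.89 CPM in Sham. Every infarcted ventricle was above every sham ventricle, and MI+BPD and MI overlapped. Heph was 2.40-fold higher in MI than in Sham (log2 fold change 1.26 ± 0.25 SE, edgeR adjusted p = 0.00162) and 2.02-fold higher in MI+BPD than in Sham (1.01 ± 0.25 SE, adjusted p = 0.00749). Between MI+BPD and MI the interval ran from -0.77 to 0.27 (adjusted p = 0.617). The log2 ratio of Cp to Heph averaged 4.83 ± 0.50 in MI+BPD, 4.30 ± 0.39 in MI and 5.15 ± 0.21 in Sham (SD, n = 3 each). It was lower in MI than in Sham with no overlap (difference -0.85, exact permutation p = 0.1, adjusted p = 0.25), and the MI+BPD ratios overlapped both other groups.

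**Figure D4:**
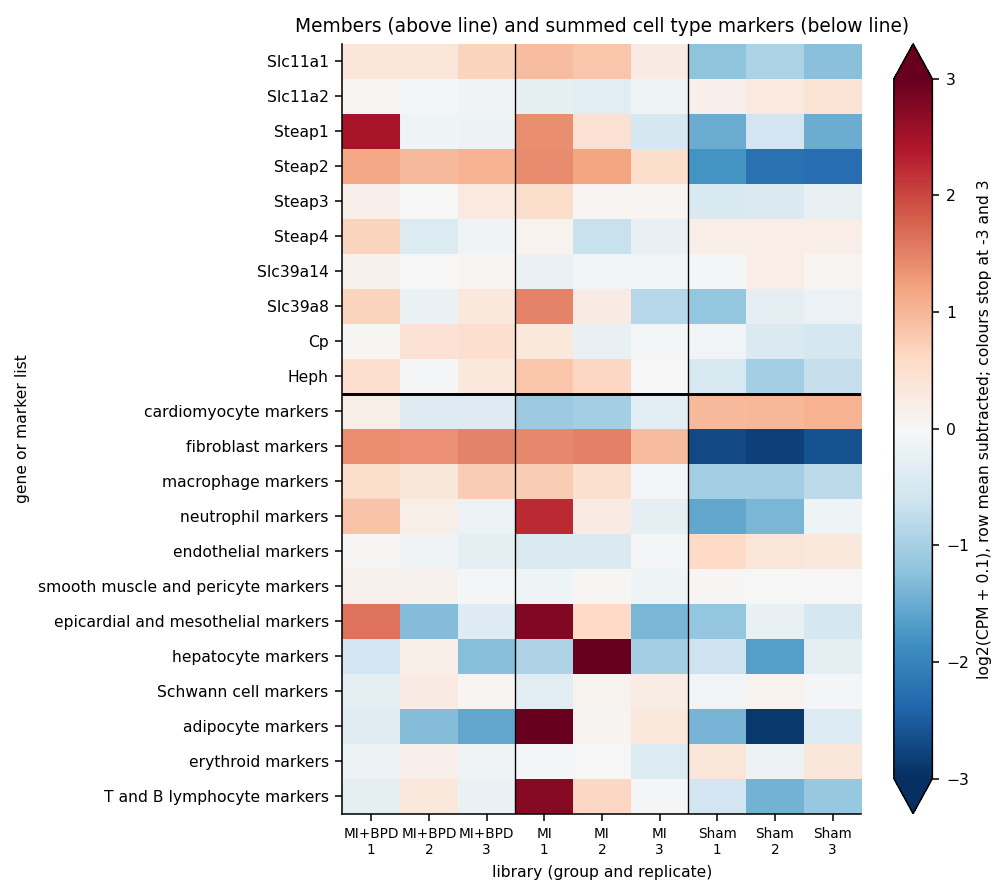
Heat map of the 10 genes (rows above the line) and the summed CPM of 12 marker lists (rows below) in the 9 libraries (columns, MI+BPD, MI and Sham). Colour gives log2(CPM + 0.1) minus the row mean. MI+BPD 1 (100.2 CPM) and MI 1 (221 CPM) stand out in the epicardial and mesothelial sum, and MI 3 has the lowest macrophage sum of the MI ventricles (740 CPM).

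In the comparison of MI+BPD with MI, 2 of the 9 tested genes had libraries that did not overlap, Slc11a2 and Slc39a14, both higher in MI+BPD. Over all genes tested, 6.63% were higher and 7.32% lower without overlap (13.9% in all). None of the 9 passed edgeR's test, and 1 (Slc11a2) had an unadjusted p under 0.05. The lack of calls was not particular to them, since edgeR called 0 of 15138 genes there, with 2043 at an unadjusted p under 0.05. DESeq2 called 12 genes, limma-voom called 1063 and the fit without MI 3 called 1353, and none of these calls was one of the 9. In the comparisons with Sham, groups did not overlap for 4 genes higher and 3 lower in MI (40.1% and 34.3% of all genes, 74.4% in all), and for 5 higher and 1 lower in MI+BPD (35.8% and 32.7%, 68.5% in all).

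Levels can be set against each other only per length of transcript. On that scale (CPM per kb of exon in GENCODE M21), Steap4 was highest in Sham at 23.1 ± 0.104, followed by Cp at 14.5 ± 2.38, Slc39a14 at 7.83 ± 0.661, Steap3 at 6.52 ± 0.592 and Slc11a2 at 5.76 ± 0.551 (SD, n = 3 each). Slc11a1 (1.14), Heph (0.497), Slc39a8 (0.409), Steap2 (0.152) and Steap1 (0.0212) were lower. Among neighbours in that order, the libraries of Steap3 and Slc11a2, and those of Heph and Slc39a8, overlapped. In the infarcted ventricles Cp and Steap4 overlapped at the top: Cp was at 23.1 ± 3.88 in MI+BPD and 18.7 ± 3.73 in MI, and Steap4 at 21.9 ± 8.78 in MI+BPD and 17.1 ± 4.41 in MI. Slc11a1 was below Slc11a2 in MI+BPD, at 3.51 ± 0.453 against 4.63 ± 0.282 per kb, and overlapped it in MI, at 4.10 ± 0.956 against 3.95 ± 0.323. Steap2, at rank 9 of 10 in Sham, ranked 7 of 10 in both infarcted groups, at 1.43 ± 0.0999 in MI+BPD and 1.46 ± 0.441 in MI. The annotation the submitters counted with is not given in the sources used here, so these lengths may differ from theirs.

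For each tested gene, the genes with the most similar pattern over the 9 libraries were sought among 10501 genes, by the root-mean-square (rms) difference of log2 CPM after each gene was centred on its own mean. Because the groups differ, such likeness mostly follows the group means and is a description. Nearest to Slc11a1 (its own spread 0.83) were Pik3cg (rms 0.087), Fcgr1 (0.087), a macrophage Fc receptor on the marker list, and Nek6 (0.092). Nearest to Slc11a2 (own spread 0.24) were Ube2n (0.050), the copper importer Slc31a1 (0.052) and Zhx2 (0.054). Steap2 (own spread 1.51) had Mmp14 (0.15), a membrane-bound matrix metalloproteinase, Bnc2 (0.16) and the lymphatic growth factor Vegfd (0.17) nearest. Heph (own spread 0.60) had the ferric reductase Frrs1 (0.099), Slc7a8 (0.12) and Csf1r (0.16), the receptor for a macrophage growth factor, nearest.

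The nearest genes were less close for the others, relative to their own spread. Steap3 (own spread 0.30) had Dnase2a (0.084), S100pbp (0.090) and Dclre1c (0.091) nearest, and Steap4 (own spread 0.37) had Ezr (0.13), Pdlim4 (0.19) and Sema6b (0.20). Slc39a14 (own spread 0.11) had Wapl (0.052), Rbm27 (0.056) and Ppie (0.058) nearest, Slc39a8 (own spread 0.75) had Cfp (0.19), Wfdc17 (0.28) and Ces2g (0.30), and Cp (own spread 0.35) had Ddx31 (0.14), Psd3 (0.16) and Arhgef10 (0.17).

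Related genes from 6 lists of metal handling show how these 10 stood among their pathways. No list gene was called in MI+BPD against MI. Of the other ZIP importers, 8 of 12 were tested, and 6 were higher, 0 lower and 2 not passing in MI and in MI+BPD against Sham alike. Over all genes tested, 37.0% were called higher and 31.9% lower in MI, and 31.8% and 27.8% in MI+BPD. The counts of each list below stand beside these shares. Neither Slc39a14 nor Slc39a8 passed. Slc39a8 had 1.10 ± 0.55 SE in MI and 0.80 ± 0.56 SE in MI+BPD on the log2 scale. Both values lay above those of Slc39a13, which was called, and below those of Slc39a6. Slc39a6, a plasma membrane zinc importer, averaged 25.3 ± 2.96 CPM in MI+BPD, 25.9 ± 3.28 CPM in MI and 6.45 ± 0.0598 CPM in Sham (SD, n = 3 each), with a log2 fold change against Sham of 1.97 ± 0.13 SE in MI+BPD and 2.01 ± 0.13 SE in MI (edgeR adjusted p = 1.25e-05 in MI+BPD and 8.77e-06 in MI). Slc39a11 was higher by 1.62 in MI+BPD and 1.83 in MI on the log2 scale, Slc39a13, a zinc transporter of the secretory pathway needed in connective tissue, by 0.67 in MI+BPD and 0.98 in MI, and Slc39a1 by 0.82 in MI+BPD and 0.88 in MI. With library totals alone the list had 7 higher and 0 lower in both comparisons. That scaling raises most genes: of all 15138, 10488 were called higher and 1765 lower in MI against Sham. In MI+BPD against Sham 9131 were called higher and 1383 lower. A rise under it is thus no added support, and the list counts given for it below stand beside these counts.

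Of the 6 cytochrome b561 reductases, which like the Steap proteins move electrons across membranes, all were tested, with 4 higher, 0 lower and 2 not passing in MI+BPD against Sham and 4 higher, 1 lower and 1 not passing in MI against Sham. Frrs1 had a log2 fold change of 1.12 in MI+BPD and 1.28 in MI against Sham, Cyb561 of 1.05 in MI+BPD and 1.02 in MI, Cyb561d2 of 1.07 in both, and the lysosomal reductase Cyb561a3 of 0.41 in MI+BPD and 0.78 in MI. All 4 rose in both comparisons with TMM factors. Library totals alone raise most genes and so cannot test these rises. Cyb561d1, the 1 called lower in MI, was called higher under that scaling (0.46, adjusted p = 0.00510), which gave 5 higher and 0 lower in both comparisons.

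Genes of cellular iron uptake, storage and export were mixed. Of 17 listed, 16 were tested, with 5 higher, 2 lower and 9 not passing in MI+BPD against Sham and 5 higher, 4 lower and 7 not passing in MI against Sham, and the median log2 fold change was -0.10 in MI+BPD and -0.06 in MI. With library totals alone, which raised most genes, 11 were higher and 1 lower in MI+BPD, and 11 higher and 2 lower in MI. Slc22a17, described as a receptor for the siderophore-binding protein lipocalin, averaged 5.14 ± 1.20 CPM in MI+BPD, 7.25 ± 0.907 CPM in MI and 1.94 ± 0.0940 CPM in Sham. The ferritin light chain gene Ftl1 was higher by 1.30 in MI+BPD and 1.46 in MI, and the heavy chain gene Fth1 lower, at -0.75 in MI+BPD and -1.07 in MI on the log2 scale. Tfr2, a transferrin receptor that takes part in iron sensing, was called higher from a few reads, at 1.01 ± 0.251 CPM in MI+BPD, 1.25 ± 0.812 CPM in MI and 0.0851 ± 0.0079 CPM in Sham. The other transferrin receptor gene, Tfrc, named here after its values were seen, was far more abundant. It averaged 164 ± 38.5 CPM in MI+BPD, 134 ± 65.8 CPM in MI and 403 ± 122 CPM in Sham. Tfrc was called lower, at -1.30 in MI+BPD (edgeR adjusted p = 0.0106) and -1.59 in MI (0.00299) on the log2 scale.

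Of 10 iron sensing genes, 7 were tested, with 1 higher, 2 lower and 4 not passing in MI+BPD against Sham and 1 higher, 4 lower and 2 not passing in MI against Sham. With library totals alone, which raised most genes, the balance turned, with 5 higher and 1 lower in both comparisons. Hjv, the bone morphogenetic protein co-receptor that muscle makes, averaged 92.9 ± 31.0 CPM in MI+BPD, 53.8 ± 23.9 CPM in MI and 242 ± 24.6 CPM in Sham. Aco1, an iron-regulatory protein that binds messenger RNA when iron is short, was lower by the same test in both groups, at -0.33 in MI+BPD and -0.44 in MI on the log2 scale. With library totals alone its log2 fold change was 0.20 in MI+BPD (adjusted p = 0.0825) and 0.30 in MI, where it was then called higher (adjusted p = 0.0124). Hfe had -0.24 in MI+BPD, which did not pass (adjusted p = 0.0786), and -0.56 in MI, which did, and with library totals alone it had 0.28 in MI+BPD, then called higher (adjusted p = 0.0272), and 0.18 in MI (adjusted p = 0.118). Neo1, a receptor that binds Hjv, was higher by 0.44 in MI+BPD and 0.61 in MI.

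Of 13 genes of zinc export and zinc binding, among them 2 metallothioneins and Mtf1, the transcription factor that activates them, 10 were tested, with 4 higher, 3 lower and 3 not passing in MI+BPD against Sham and 4 higher, 4 lower and 2 not passing in MI against Sham. Slc30a7, which loads zinc into the Golgi, was higher by 1.12 in MI+BPD and 1.20 in MI on the log2 scale, and Slc30a4, another zinc exporter, by 0.74 in MI+BPD and 0.81 in MI. Mt1, the metallothionein that binds zinc and copper, was lower at -0.56 in MI+BPD and -0.97 in MI. The other metallothionein, Mt2, named here after its values were seen, was higher by 1.32 in MI+BPD (edgeR adjusted p = 0.00340) and 0.71 in MI (0.0483), and the MI call was lost with median-ratio factors (0.0606). Mtf1 was lower at -0.35 in MI+BPD and -0.50 in MI, and with library totals alone it was at 0.18 in MI+BPD and 0.23 in MI. Slc30a9 was lower at -0.67 in MI+BPD and -0.87 in MI. Of 10 copper genes, 8 were tested, with 1 higher, 4 lower and 3 not passing in MI+BPD against Sham and 2 higher, 4 lower and 2 not passing in MI against Sham. Atp7a, the pump that loads copper into secreted and membrane enzymes such as the ferroxidases, averaged 20.9 ± 0.716 CPM in MI+BPD, 20.8 ± 2.93 CPM in MI and 9.55 ± 0.959 CPM in Sham. The importer Slc31a1 was lower at -0.28 in MI+BPD and -0.52 in MI, Sco1, an assembly factor of cytochrome oxidase, at -0.63 in MI+BPD and -0.89 in MI, and Commd1 at -0.47 in MI+BPD and -0.81 in MI. Library totals alone raised most genes. Under that scaling the zinc list had 6 higher and 0 lower in MI+BPD and 7 higher and 0 lower in MI. The copper list then had 5 higher and 0 lower in MI+BPD and 6 higher and 0 lower in MI. Slc31a1 was then at 0.24 in MI+BPD and 0.21 in MI.

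**Figure D5:**
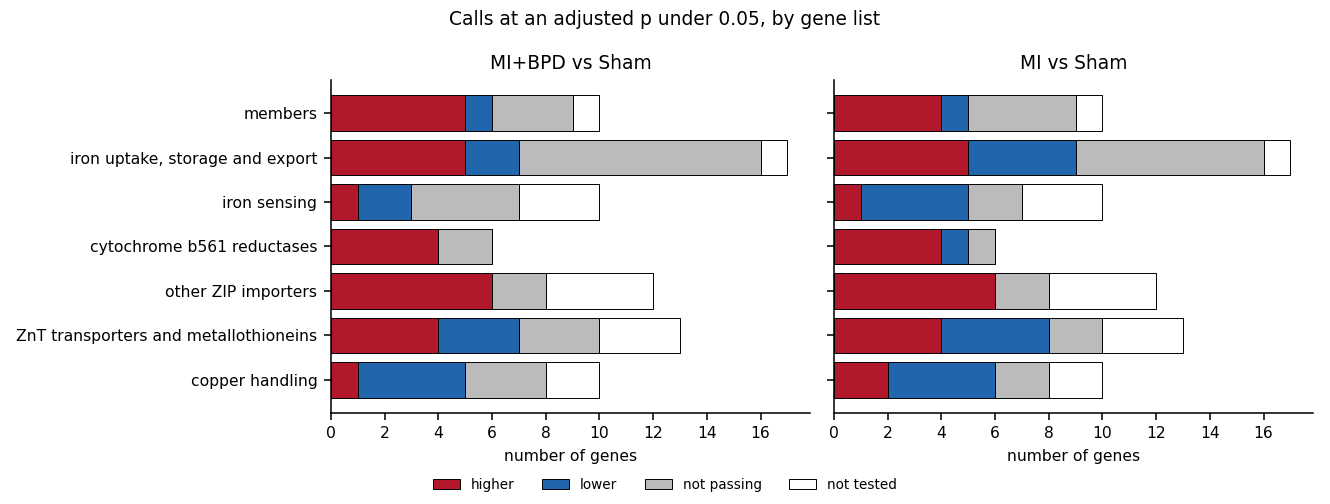
Number of tested genes called higher, called lower or not passing (edgeR adjusted p of 0.05, x axis) for the 10 genes and each of the 6 pathway lists (y axis), in MI+BPD against Sham and MI against Sham. The other ZIP importers have 6 genes higher and 0 lower in both comparisons. Over all genes tested, 37.0% were called higher in MI and 31.8% in MI+BPD.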

How the data were processed

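The authors deposited raw read counts per gene symbol for 9 libraries, whole numbers with no normalization. RNA came from left ventricle (RNA integrity number above 7.0) and was sequenced as 150 bp paired ends, per the labels' protocols. STAR, without a version, and the builds mm10, GRCm39 and mm39, without a role, are named in the submitters' processing notes; how reads were assigned to genes, with which strand rule and which annotation, is not given in the sources used here, so genes are identified by symbol, and coordinates are given only for RefSeq promoter windows. The 10 genes, the related lists and the tests were chosen with earlier results of these data known.

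Counts of all 9 libraries were fitted by group in R 4.3.3 with edgeR 4.0.16 (TMM factors, filterByExpr with a minimum count of 10 and a minimum total of 15, robust quasi-likelihood F test, 2-sided, 6 residual degrees of freedom). Benjamini-Hochberg adjustment covered the 15138 tested genes, and calls needed an adjusted p below 0.05. Standard errors follow from the F statistic. Library totals ran from 14451410 to 19269072 counts. Ratios of related genes within a library were compared by exact permutation in SciPy 1.17.1, with a pseudocount of 0.1 CPM. Named beside the 10 genes are up to 4 genes per list with the smallest adjusted p in MI against Sham, and the 3 nearest patterns of each tested gene. Cyb561d1, Mtf1, Mt2 and Tfrc are named outside this rule, Mt2 and Tfrc after their values were seen. The fit and the ratio test were tested on simulated data. Alternatives were DESeq2 1.42.0, limma-voom (limma 3.58.1), other scaling factors, filters and thresholds, only the groups compared, a replicate block, mitochondrial and haemoglobin genes left out, and libraries left out.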

Additional observations from a re-analysis of the deposited data

How the results depend on the processing

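In MI against Sham, with 4 genes called higher and 1 lower, the number called lower was 2 with median-ratio factors, with DESeq2 and without both MI 1 and MI+BPD 1, 3 with limma-voom, and 0 at 2-fold or more. With library totals as the only scaling 7 were higher and 0 lower, where 10488 of all 15138 genes were called higher and 1765 lower. Leaving out 1 library gave 4 to 5 higher and 1 to 3 lower, with 2 lower without Sham 1 and 3 without MI+BPD 1. In MI+BPD against Sham, with 5 higher and 1 lower, none was lower with library totals, no filter, an adjusted p under 0.01 or 2-fold or more (0 in each; 3 higher at 2-fold), and 2 were lower without both MI 1 and MI+BPD 1. With library totals, 9131 of all 15138 genes were called higher in that comparison and 1383 lower. Leaving out 1 library gave 5 higher each time and 0 to 1 lower, with 0 without Sham 3, MI+BPD 2 or MI+BPD 3. In MI+BPD against MI every alternative run gave 0.

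With library totals the sign turned in MI against Sham for Slc11a2 (0.19), Steap4 (0.31) and Slc39a14 (0.54), in MI+BPD against Sham for Slc11a2 (0.21), Steap4 (0.42) and Slc39a14 (0.51), and in MI+BPD against MI for Slc39a14 (-0.030). In MI+BPD against Sham, Slc39a14, near 0, turned with upper-quartile factors (0.0048), no filter (0.024) and only the 2 groups (0.0017), and ran from -0.087 to 0.051 with 1 library left out, while Steap4 ran from -0.48 to 0.13. In MI+BPD against MI, where no gene passed, the sign also turned for Steap3 with limma-voom (0.015) and without MI 1 and MI+BPD 1 (0.087), and for Steap2 (0.10) and Slc39a8 (0.28) without both. With 1 library left out, Steap2 ran from -0.25 to 0.17, Steap3 from -0.15 to 0.098, Slc39a8 from -0.70 to 0.52 and Steap4 from -0.039 to 0.56. The ratio of Slc39a14 to Slc39a8 ran from -0.43 to 0.79 and that of Steap1 to Steap2 from -0.54 to 0.70. For these changes the cause was not tested. Of 586 single fold changes set against the main fit, 537 kept their direction and their side of the threshold. That count includes the stricter thresholds (adjusted p under 0.01, 2-fold or more). They reuse the main fold changes, so that no direction could turn there. In MI+BPD against MI, where nothing was called, they could not change the side either. For Steap1, leaving out 1 library was chosen after seeing the data.

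The correlation of deviations ran from -0.16 to 0.19 between libraries with the same number, and from -0.28 to 0.21 between those with different numbers. With 3 libraries per group this cannot tell whether same-numbered libraries share a batch, and the labels do not say what the numbers mean. The main fit did not pair them. The fit with the replicate block called 4 higher and 1 lower in MI and 5 higher and 1 lower in MI+BPD against Sham, and 0 in MI+BPD against MI, where Steap2 was at 0.0096. No group had more than 3 libraries, too few to look for single outlying samples. Depth limited Steap1, with 0 or 1 reads in each sham library.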
